A study of Mus musculus with 4 samples.

Results

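The adipocyte genes of epineurial fat described here are 36 genes of fat cells measured in mouse sciatic nerve, taken by symbol from a table of 24062 genes. They cover adipokines, lipid droplet proteins, adipocyte transcription factors, fatty acid and glucose uptake, lipolysis, triglyceride assembly, fatty acid synthesis and thermogenesis. All 36 were found in the table, and 35 reached 1 CPM in at least 1 library, as did 14700 of all genes. CPM is the count of a gene relative to the TMM-scaled total of its library. The members were put in 4 classes: 10 white-type genes of adipocyte identity and fat storage, 6 brown-type genes of thermogenesis, 7 lipogenic genes of fatty acid synthesis and 13 genes of lipid handling.

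RNA came from sciatic nerves of C57BL/6 mice aged 4 months, with 1 sequencing library for each of 4 genotypes. PKO-NF1 nerves were P2RY14-/- and also Nf1fl/f with Dhh Cre. The Desert hedgehog promoter drives this Cre in Schwann cell precursors, so Nf1, a brake on RAS, is deleted in their descendants and not by a driver of fat cells. NF1 nerves were Nf1fl/fl; Dhh Cre with P2ry14 intact. PKO nerves were P2RY14-/-, without the receptor that senses UDP-glucose, and had intact Nf1. WT nerves had neither mutation. The labels give neither the number nor the sex of the animals behind a library, and the NF1 library is labelled a repeat. No difference therefore has a replicate check: a ratio sets one library against another, and its 95% interval allows for counting error alone.

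White adipocytes store fat in a single large droplet, coated by perilipin and enlarged by CIDE proteins, and they secrete leptin, adiponectin and resistin. Brown and beige adipocytes hold many small droplets and burn fatty acids through the uncoupling protein Ucp1. Fat lies in the epineurium around peripheral nerve, while Schwann cells make fatty acids for myelin, so enzymes of fatty acid synthesis are used by both. In bulk tissue fewer cells of a type and less RNA per cell cannot be told apart, and these counts do not show where in the nerve the fat lay.

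The promoters of 3 members are shown because the results turn on them: Dio2 was higher in both libraries with floxed Nf1 than in their controls, Plin1 was lower in both, and Lep had the lowest NF1 over WT ratio of any member. Each is the 250 bases before the RefSeq start (RefSeq, GRCm38.p6), 5′ to 3′ on the strand of the gene. Capitals mark matches on either strand to the TATA box (TATAAA), the CCAAT box (CCAAT), a C/EBP-type site (TTGCNNAA) or the cAMP response element (TGACGTCA), and no match overlapped another.
Dio2, chr12:90739039-90739288, minus strand: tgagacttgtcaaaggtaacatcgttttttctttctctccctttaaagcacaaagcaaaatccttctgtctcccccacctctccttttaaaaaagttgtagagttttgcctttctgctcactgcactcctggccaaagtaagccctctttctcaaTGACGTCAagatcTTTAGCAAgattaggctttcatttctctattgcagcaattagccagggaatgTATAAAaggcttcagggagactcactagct
Lep, chr6:29059971-29060220, plus strand: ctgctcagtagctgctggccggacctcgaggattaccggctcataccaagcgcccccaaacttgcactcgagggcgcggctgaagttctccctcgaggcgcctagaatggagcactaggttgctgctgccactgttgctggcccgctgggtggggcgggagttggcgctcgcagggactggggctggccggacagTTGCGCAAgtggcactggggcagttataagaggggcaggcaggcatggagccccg
Plin1, chr7:79732777-79733026, minus strand: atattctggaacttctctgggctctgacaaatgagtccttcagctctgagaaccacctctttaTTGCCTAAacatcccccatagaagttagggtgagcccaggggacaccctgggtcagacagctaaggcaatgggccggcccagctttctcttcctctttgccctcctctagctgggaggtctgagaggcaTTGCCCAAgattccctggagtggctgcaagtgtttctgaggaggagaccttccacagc

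A promoter window was at hand for 25 of the 36 members. The cAMP response element was in 1.55% of 32851 promoter windows of the genome and in 1 of the 25 members, Dio2, where it began 95 bases before the start. The C/EBP-type letters were in 9.56% of all windows and in 5 members, Cidec, Dio2, Lep, Plin1 and Pparg. The TATA box letters were in 12.4% of windows and in 3 members, Cebpa, Dio2 and Pparg, and the CCAAT box in 33.8% of windows and in 9 members. A PPAR-type direct repeat was in 0.0335% of windows and in 0 members. A match is a run of letters and not a site shown to be bound.

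Total counts lay between 14111201 in WT and 20362685 in PKO, and 3 counts were worth between 0.152 and 0.183 CPM. P2ry14 was at 10.6 CPM in PKO-NF1 and 10.9 CPM in PKO, against 65.3 CPM in NF1 and 37.6 CPM in WT. Nf1 was at 20.5 CPM in PKO-NF1 and 63.4 CPM in NF1, against 41.0 CPM in PKO and 72.8 CPM in WT, and a count over the whole gene does not check the loss of an exon. The 12 Schwann cell markers, led by Mbp, took between 0.898% of counts in NF1 and 3.01% in PKO. NF1 stood apart from the rest: 17 skeletal muscle genes, led by Acta1 and Mylpf, took 6.55% of its counts, and between 0.0134% and 0.13% elsewhere. It also had 39699 counts of Xist and 0 of the Y-linked Ddx3y, where PKO-NF1 had 9 of Xist and 842 of Ddx3y, and PKO and WT had counts of both. The part of muscle RNA, and of sex, in the differences below was not tested.

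White-type genes, a class of adipocyte identity and fat storage, were abundant, while the defining gene of brown fat was at or near 0. The 36 members together took 1.45% of counts in PKO-NF1, 0.97% in NF1, 1.79% in PKO and 1.24% in WT. Ucp1 had 1 count in PKO-NF1, 0 in NF1, 4 in PKO and 0 in WT, too few for any ratio. Per kilobase of the principal transcript, Fabp4, the fatty acid carrier of adipocyte cytoplasm, was the most abundant member in every library, at 4996 CPM per kb in PKO-NF1, 1575 in NF1, 5783 in PKO and 1474 in WT. Adipoq and Scd1 were among the 5 highest on this per-length scale in each library. At the other end, Cidea and Dio2 did not exceed 3.91 CPM per kb in any. Every white-type gene lay above every brown-type gene per kb in each library, except that Lep, at 3.02 CPM per kb in NF1, lay below Cidea, Dio2, Ppargc1a and Adrb3 there.

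**Figure D1:**
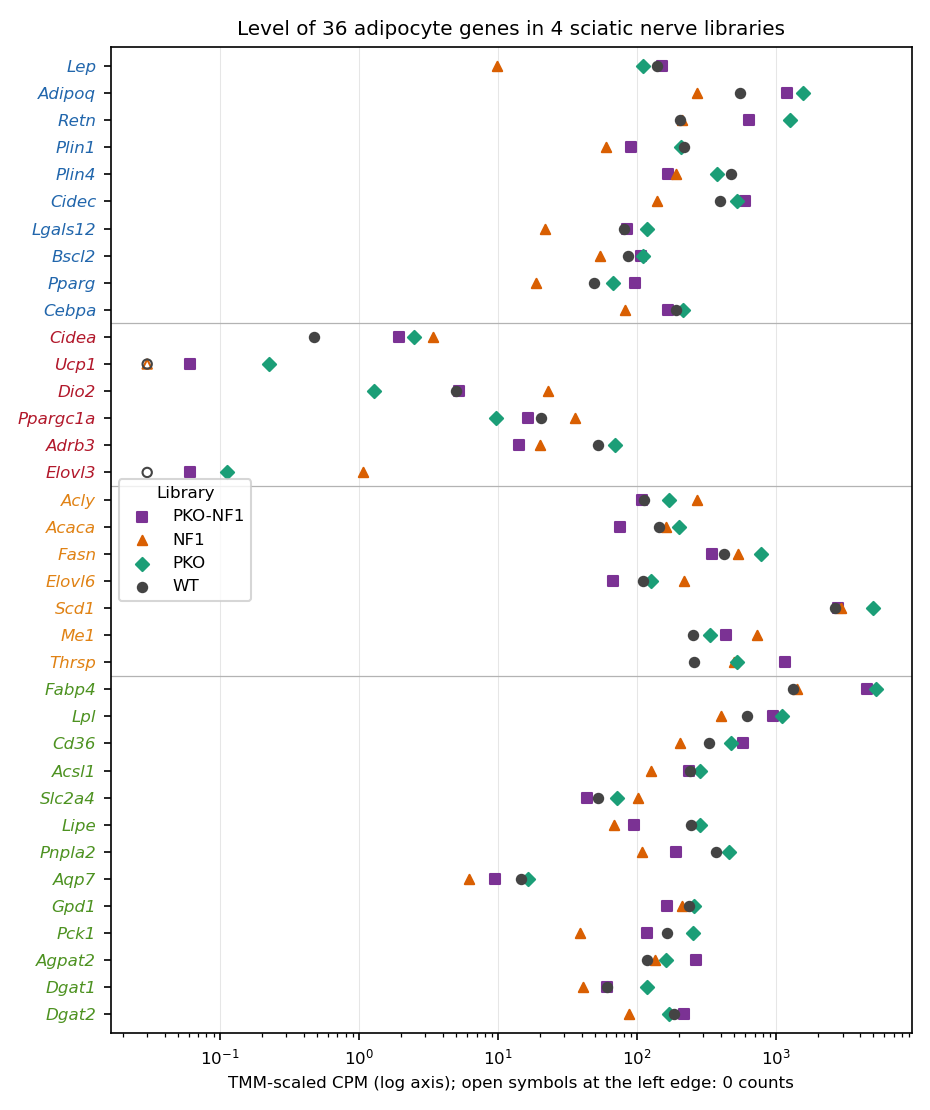
TMM-scaled CPM (log axis) of the 36 adipocyte genes, with 1 symbol for each of the PKO-NF1, NF1, PKO and WT libraries, open symbols for 0 counts and gene names coloured by class (blue white-type, red brown-type, orange lipogenic, green lipid handling). NF1 has the lowest symbol for Lep, at 9.84 CPM, and the highest for Dio2, at 22.7 CPM, while Ucp1 lies at or near 0 in all 4 libraries.

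Among the adipokines, Lep (leptin, the satiety hormone; chr6:29060220-29073877) was at 152 CPM in PKO-NF1, 9.84 in NF1, 110.0 in PKO and 140 in WT. Adipoq (adiponectin; chr16:23146536-23158028) was at 1186 CPM in PKO-NF1, 270.4 in NF1, 1570.0 in PKO and 551 in WT. Retn (resistin, secreted by mouse adipocytes; chr8:3655770-3660110) was at 640.0 CPM in PKO-NF1, 209 in NF1, 1261 in PKO and 204 in WT. Lep was thus low in NF1 alone, whereas Adipoq and Retn were higher in both libraries without P2ry14 than in both libraries with it. Counts of one gene for each 100 of another, which no scaling changes, show the same adipokines out of step. There were 12.8 counts of Lep for each 100 of Adipoq in PKO-NF1, 3.64 in NF1, 7.0 in PKO and 25.3 in WT. For Retn the number was 53.9 in PKO-NF1, 77.3 in NF1, 80.3 in PKO and 37.1 in WT.

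Of the droplet genes, Plin1 (perilipin, which coats the droplet and restrains its lipases; chr7:79720218-79732903) was at 89.7 CPM in PKO-NF1, 60.2 in NF1, 206 in PKO and 216 in WT. Plin4, another coat protein, was at 166 CPM in PKO-NF1, 190 in NF1, 376 in PKO and 472 in WT. Cidec, which fuses droplets, was at 597 CPM in PKO-NF1, 138 in NF1, 524 in PKO and 396 in WT. The perilipins were lower in both libraries with floxed Nf1, and Cidec was low in NF1 alone. For each 100 counts of Plin1 there were 666 of Cidec in PKO-NF1, 230 in NF1, 254 in PKO and 183 in WT.

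The lipolysis genes followed the perilipins. Lipe (hormone-sensitive lipase; chr7:25379527-25398710) was at 94.9 CPM in PKO-NF1, 67.8 in NF1, 284 in PKO and 242 in WT. Pnpla2, the lipase that takes the first fatty acid off a triglyceride, was at 190.5 CPM in PKO-NF1, 108 in NF1, 461 in PKO and 370 in WT. Adrb3 (the adrenergic receptor that starts lipolysis in white and brown fat; chr8:27225776-27250616), listed here with the brown-type genes, had 231 counts in PKO-NF1, 394 in NF1, 1240 in PKO and 890 in WT. All 3 genes were lower in both libraries with floxed Nf1 than in both without. Lipe stayed near Plin1, with 106 counts for each 100 of Plin1 in PKO-NF1, 113 in NF1, 138 in PKO and 112 in WT. An antisense gene overlaps Lipe, and strandedness is not known, so its counts are uncertain to that extent. The same holds for Adrb3, Plin4, Dio2 and Cebpa, among other members, whose exons a gene on the opposite strand overlaps.

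Dio2 (the deiodinase that activates thyroid hormone; chr12:90724552-90738438) was at 5.25 CPM in PKO-NF1, 22.7 in NF1, 1.29 in PKO and 5.02 in WT. Its levels in PKO-NF1 and WT were alike, with NF1 above and PKO below them. Cidea, a droplet protein of brown and beige fat in mice, had 32 counts in PKO-NF1, 67 in NF1, 44 in PKO and 8 in WT. Elovl3, an elongase of brown fat, had 1 count in PKO-NF1, 21 in NF1, 2 in PKO and 0 in WT, so that it reached 1 CPM through NF1 alone. Pitx3 overlaps Elovl3 on the opposite strand, so those few counts are uncertain.

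The comparison of NF1 with WT bears on loss of Nf1 in the Dhh Cre lineage. White-type and lipolysis genes were lower in NF1, and lipogenic genes were on the higher side. A member counts as called when it is at least 2-fold apart and its interval excludes 1. By that rule 14 of 35 members were lower, where 6.31% of all genes were, and 5 were higher, where 10.4% were. The median log2 ratio was -1.35 over 10 white-type genes (0 higher, 8 lower), 2.18 over 5 brown-type genes (3 higher, 1 lower), 0.97 over 7 lipogenic genes (2 higher, 0 lower) and -0.69 over 13 lipid handling genes (0 higher, 5 lower). The median over all genes was 0.0. Elovl3 passed the 1 CPM filter through NF1 alone, so that its direction was fixed, and it enters with its 0 counts in WT set to 3. Without it 4 members were higher, and the brown-type median was 1.5 over 4 genes. With genes at 5 CPM or more it was 0.81 over 3 genes (1 higher, 1 lower).

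In NF1, Lep was 14.2-fold lower than in WT (interval 12.2 to 16.5) and Adipoq 2.04-fold lower (1.97 to 2.11), while Retn was not called. Of 5 droplet genes 4 were lower. Plin1 was 3.59-fold lower (3.36 to 3.83), Lgals12, a droplet galectin, 3.67-fold (3.29 to 4.1), Cidec 2.86-fold (2.73 to 2.99) and Plin4 2.49-fold (2.4 to 2.59). Bscl2, or seipin, which shapes new droplets, was 1.59-fold lower and not called. Both transcription factors were lower. Pparg, the master regulator of adipocytes, was 2.62-fold lower (2.31 to 2.96) and Cebpa, its partner, 2.31-fold (2.18 to 2.46).

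All 3 lipolysis genes were lower in NF1: Lipe 3.57-fold (3.36 to 3.8), Pnpla2 3.43-fold (3.27 to 3.61) and the glycerol channel Aqp7 2.36-fold (1.9 to 2.96). Pck1, which in fat makes the glycerol backbone of triglyceride, was at 38.9 CPM in NF1 and 164.5 CPM in WT, 4.23-fold lower (3.91 to 4.59). Dgat2, an enzyme of the last step of triglyceride synthesis, was 2.09-fold lower (1.97 to 2.22). The other triglyceride genes, Agpat2, Gpd1 and Dgat1, had log2 ratios between -0.59 and 0.19. None of the 5 uptake genes was called. Fabp4 was at 1411 CPM in NF1 and 1321 CPM in WT, a log2 ratio of 0.1. Once the length and GC trend was removed, it was -0.06 and not called on longest transcripts. On principal transcripts it was -1.04 and called lower. Lpl, Cd36 and Acsl1 had log2 ratios of -0.61, -0.69 and -0.93, and Slc2a4, the insulin-regulated glucose transporter of fat and muscle, 0.95.

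The 7 lipogenic genes had positive log2 ratios in NF1 over WT, from 0.14 for Scd1 to 1.54 for Me1. Me1, malic enzyme, which supplies NADPH, was at 730 CPM in NF1 and 251 CPM in WT, 2.91-fold higher (2.81 to 3.01). An antisense gene overlaps Me1. Acly, which makes cytosolic acetyl-CoA, was at 268 CPM in NF1 and 112 CPM in WT, 2.38-fold higher (2.26 to 2.51). Elovl6, an elongase of long-chain fatty acids, was 1.99-fold higher and Thrsp, a nuclear protein of lipogenic tissue, 1.96-fold, just inside the 2-fold limit. Acaca, acetyl-CoA carboxylase, and Fasn, fatty acid synthase, were 1.12-fold and 1.25-fold higher. Schwann cell markers summed to 8692 CPM in NF1 and 23800 CPM in WT, and their part in the lipogenic values was not tested.

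Brown-type genes were split in NF1. Cidea was 7.2-fold higher than in WT (3.45 to 17.4) and Dio2 4.53-fold (3.59 to 5.79). Elovl3 was 6.02-fold higher with its 0 counts in WT set to 3, and its interval began at 4.48. Adrb3 was 2.63-fold lower (2.33 to 2.96). Ppargc1a, a coactivator of mitochondrial genes, was 1.75-fold higher and not called. Muscle also expresses Dio2, Ppargc1a and Slc2a4, and the muscle markers summed to 63397 CPM in NF1 and 1083 CPM in WT.

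With the trend of all genes over transcript length and GC content removed, 12 members were lower in NF1 than in WT, where 4.54% of all genes were, and 8 higher, where 7.7% were. Plin4, Cebpa and Dgat2 were then no longer called, and Cd36 was called lower. Slc2a4, Fasn and Elovl6 were called higher. Elovl3 is among the 8.

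PKO-NF1 was set against PKO to ask about the same loss where P2ry14 is absent. These libraries held 346 CPM and 154 CPM of the muscle markers. Again more members were lower than higher: 8 of 35 were lower, where 9.73% of all genes were, and 2 were higher, where 5.21% were. The median log2 ratio was -0.37 over white-type genes (0 higher, 2 lower), -0.34 over brown-type (1 higher, 1 lower; 0.2 without Elovl3 and 0.74 at 5 CPM or more), -0.83 over lipogenic (1 higher, 2 lower) and -0.65 over lipid handling genes (0 higher, 3 lower), beside -0.01 over all genes. The lipogenic median was -0.29 with the length and GC trend removed, with 1 higher and 0 lower.

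As measured, lipolysis and droplet coat genes were the core of those lower in PKO-NF1. Lipe was 2.99-fold lower than in PKO (2.83 to 3.17), Pnpla2 2.42-fold (2.32 to 2.52), Plin1 2.3-fold (2.16 to 2.45), Plin4 2.26-fold (2.16 to 2.37) and Pck1 2.15-fold (2.04 to 2.27). Adrb3 was 4.95-fold lower (4.29 to 5.72). The other 2 were lipogenic: Acaca was 2.64-fold lower (2.47 to 2.81) and Fasn 2.24-fold (2.17 to 2.31). With the length and GC trend removed, neither was called, and the log2 ratio of Fasn was 0.02 in place of -1.16. Plin1 (-0.86), Plin4 (-0.39) and Pnpla2 (-0.95) lost their call too. Of the members 4 were then lower, where 4.38% of all genes were, namely Adrb3, Lipe, Pck1 and Retn, and 2 higher, where 3.35% were. Fabp4 was at a log2 ratio of -0.21 as measured and -0.52 with the trend removed on longest transcripts, not called in either. On principal transcripts it was at -1.11 and was called lower too.

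Of the 8 white-type genes called lower in NF1 than in WT, 6 were not called in PKO-NF1 against PKO. Lep was 1.38-fold higher, Pparg 1.44-fold higher and Cidec 1.14-fold higher, while Cebpa was 1.27-fold lower, Adipoq 1.32-fold lower and Lgals12 1.41-fold lower. Whether the pairs differ in these genes was not tested. Retn, which was level between NF1 and WT, was 1.97-fold lower (1.93 to 2.02). Thrsp was at 1163 CPM in PKO-NF1 and 526 CPM in PKO, 2.21-fold higher (2.16 to 2.27). Dio2 had 86 counts in PKO-NF1 and 23 in PKO, 4.06-fold higher (2.54 to 6.74). Cidea, at 32 counts in PKO-NF1 and 44 in PKO, and Elovl3, at 1 and 2 counts, were not called.

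The pairs that differ in Nf1 share no library. Adrb3, Lipe, Pck1, Plin1, Plin4 and Pnpla2 were lower in both, 6 of 35 members or 17.1%, against 2.6% of all genes. They are 6 of the 14 members lower in NF1 and 6 of the 8 lower in PKO-NF1. Dio2 was higher in both, 1 of 35 members or 2.86%, against 1.29% of all genes. Muscle also expresses Dio2. Of 17 muscle markers 17 were higher in NF1 than in WT, where 10.4% of all genes were. In PKO-NF1 against PKO 11 were higher and 1 lower, where 5.21% and 9.73% of all genes were. The part of muscle RNA in Dio2 was not tested. The number of members called in opposite directions was 0, where 0.572% of all genes were. With the trend removed, Adrb3, Lipe and Pck1 were still lower in both pairs, 8.57% of members against 0.822% of all genes, and Dio2 still higher. On principal transcripts Fabp4 joined those lower in both.

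**Figure D2:**
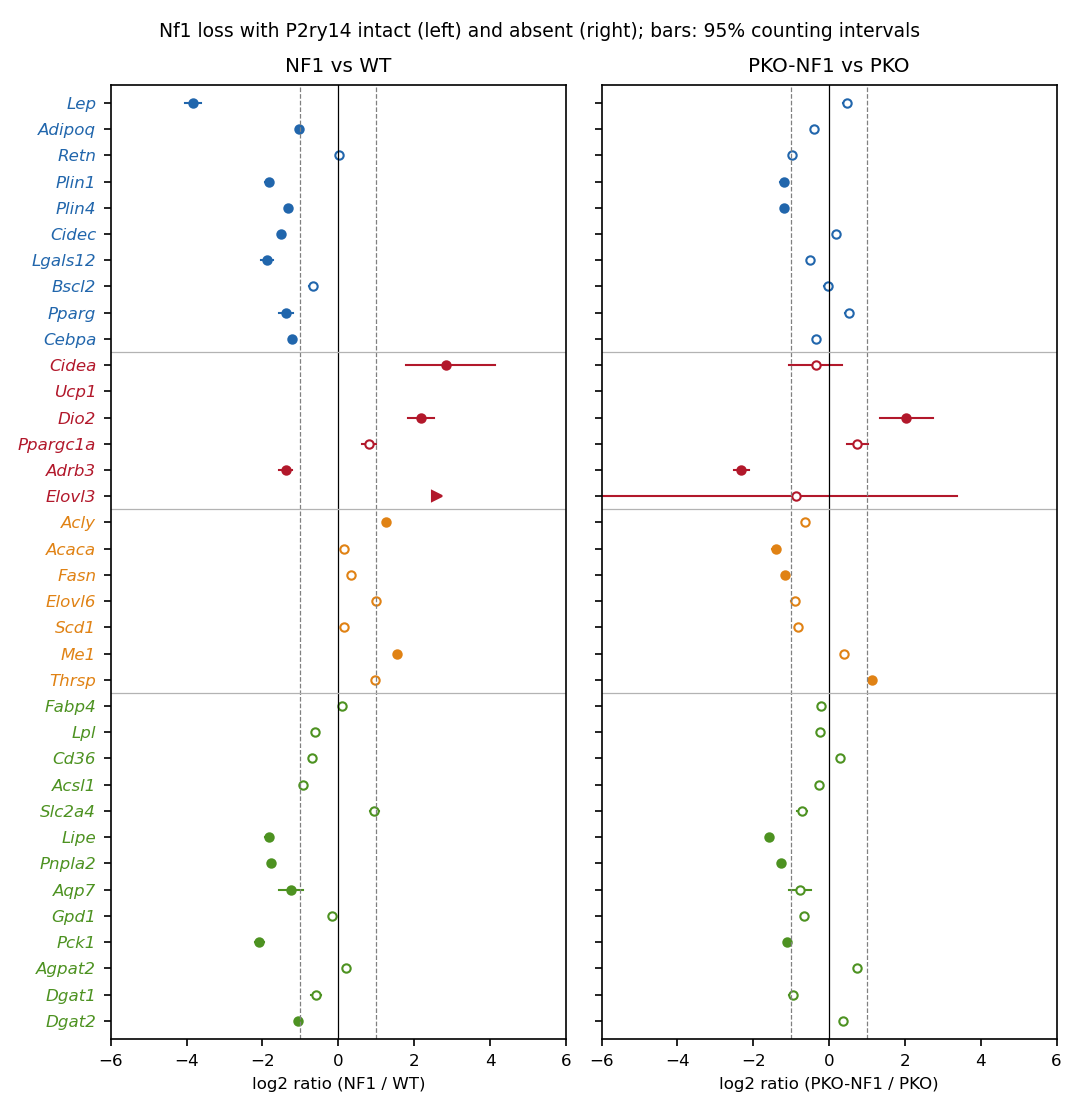
Log2 ratios of the adipocyte genes in NF1 over WT (left) and PKO-NF1 over PKO (right), with bars for 95% counting intervals (cut at the axis for Elovl3), filled symbols for called genes and dashed lines at 2-fold. A triangle marks Elovl3 in NF1 over WT, with its 0 counts in WT set to 3. Lipe, Pnpla2, Plin1, Plin4, Pck1 and Adrb3 lie below the lower 2-fold line in both panels and Dio2 above the upper one in both, whereas Lep is at -3.83 on the left and 0.47 on the right.

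An additive model over the 4 libraries gave the one test the design allows. It holds a term for Nf1 and a term for P2ry14, and the 1 degree of freedom left over is their interaction. It has none for transcript length or GC content, so that trend stays in its values. A p-value from it weighs a term against departure from additivity and not against spread between animals. With edgeR's quasi-likelihood test and Benjamini-Hochberg adjustment over all genes, the Nf1 term called 0 of 34 members and 0.0% of 14105 genes. At an unadjusted p under 0.05, edgeR's test gave 12 members, 9 lower and 3 higher, beside 20.9% of all genes. The smallest edgeR adjusted p among members was 0.168, for Dio2 (fitted log2 change 2.11), Adrb3 (-1.85), Lipe (-1.71), Pck1 (-1.59), Pnpla2 (-1.53) and Plin1 (-1.52). The DESeq2 Wald test called 7 of 34 members at the Nf1 term, these 6 and Plin4, beside 2.0% of all genes, with adjusted p between 0.000331 and 0.0219.

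The comparison of PKO with WT bears on loss of P2ry14 by itself. Resistin, adiponectin and Fabp4 were higher in PKO, while perilipins and lipases lay near their WT level. By the rule 5 of 35 members were higher, where 10.0% of all genes were, and 2 were lower, where 5.23% were. Median log2 ratios were 0.37 over white-type, 0.58 over lipogenic and 0.44 over lipid handling genes, but scaled by total counts alone they were -0.09, 0.12 and -0.02, with the median of all genes at -0.54 in place of -0.08. The brown-type median was -0.33 over 4 genes, 0.35 over 5 with no filter and -1.07 over 3 at 5 CPM or more, so that it has no stable direction.

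Retn was 6.17-fold higher in PKO than in WT (5.96 to 6.4). Fabp4 was at 5181 CPM in PKO and 1321 CPM in WT, 3.92-fold higher (3.87 to 3.98), Adipoq was 2.85-fold higher (2.78 to 2.92) and Thrsp 2.06-fold (1.99 to 2.14). The principal transcripts of these 4 genes are short, from 896 to 1292 bases. Over all genes, log2 ratio and transcript length had a Spearman correlation of -0.5 in this comparison (14538 genes of the same 2 libraries, which are not independent), and -0.42 over 34 members. With the length and GC trend removed on principal transcripts, Retn had a log2 ratio of 1.72 and was still called, whereas Fabp4 (0.97), Adipoq (0.7) and Thrsp (0.33) were not. Fasn (1.51) and Scd1 (1.05) then were. With longest transcripts in the trend, Fabp4 (2.07) stayed called, so that 5 members were higher, where 5.63% of all genes were, and 1 lower, Dio2, where 5.1% were.

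Plin1, Plin4, Lipe, Pnpla2 and Cebpa had log2 ratios between -0.33 and 0.32 in PKO over WT and were not called. Lep was 1.27-fold lower (1.2 to 1.35) and not called. Among brown-type genes, Cidea had 44 counts in PKO and 8 in WT, 5.24-fold higher (2.44 to 12.9). Dio2 had 23 counts in PKO and 85 in WT, 3.88-fold lower (2.42 to 6.44). Ppargc1a was at 9.73 CPM in PKO and 20.5 CPM in WT, 2.11-fold lower (1.75 to 2.54). Muscle also expresses Dio2 and Ppargc1a. The muscle markers summed to 154 CPM in PKO and 1083 CPM in WT, with 13 of 17 lower in PKO and 0 higher. Of all genes 5.23% were lower. The part of muscle RNA in these values was not tested.

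The comparison of PKO-NF1 with NF1 bears on loss of P2ry14 where Nf1 is also floxed. It has the muscle-rich NF1 library as its control, and NF1 over WT has it as its numerator, so both rest on that library's values. PKO-NF1 and NF1 also differ in sex-linked counts, with 9 and 39699 of Xist and 842 and 0 of Ddx3y. Sex thus goes along with genotype in this comparison. Sex-linked counts differed in the pairs that differ in Nf1 as well. Xist had 39699 counts in NF1 and 10304 in WT, and 9 in PKO-NF1 and 4948 in PKO. The part of sex was not tested in any comparison. By the rule 13 of 35 members were higher in PKO-NF1, where 7.9% of all genes were, and 7 were lower, where 13.8% were. The median log2 ratio was 1.78 over white-type genes (7 higher, 0 lower), 0.9 over lipid handling (5 higher, 1 lower), -0.74 over lipogenic (1 higher, 3 lower) and -1.14 over brown-type genes (0 higher, 3 lower). The direction of Elovl3, 1 of these 3, was fixed by the filter, and without it 6 members were lower. With the length and GC trend removed 12 members were higher, where 5.5% of all genes were, and 6 lower, where 10.4% were. Retn, Thrsp, Acaca and Ppargc1a were then no longer called, while Acsl1 was called higher and Cidea lower, and the lipogenic median was -0.42 (0 higher, 2 lower). On principal transcripts Fabp4 (log2 ratio 0.94) lost its call as well.

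Lep was 15.5-fold higher in PKO-NF1 than in NF1 (13.3 to 18.0), Pparg 5.13-fold (4.58 to 5.76), Adipoq 4.39-fold (4.26 to 4.52) and Cidec 4.32-fold (4.14 to 4.5). Both perilipins stood apart from these white-type genes, Plin1 at a log2 ratio of 0.57 and Plin4 at -0.19. Fabp4 was 3.17-fold higher (3.13 to 3.22), Pck1 3.03-fold (2.78 to 3.29), Cd36, a fatty acid translocase of fat, endothelium and macrophages, 2.83-fold (2.73 to 2.94), Dgat2 2.48-fold (2.34 to 2.63) and Lpl, which frees fatty acids from lipoproteins, 2.35-fold (2.28 to 2.41). Among lipogenic genes Thrsp alone was higher, 2.32-fold (2.27 to 2.38), but at a log2 ratio of 0.74 with the trend removed it was not called.

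Elovl6 was 3.26-fold lower in PKO-NF1 than in NF1 (3.05 to 3.49), Acly 2.47-fold (2.34 to 2.61) and Acaca 2.12-fold (1.99 to 2.27), the last not called with the trend removed (log2 ratio -0.42). Slc2a4 was at 43.6 CPM in PKO-NF1 and 100.6 CPM in NF1, 2.31-fold lower (2.12 to 2.51). Dio2 was 4.33-fold lower (3.43 to 5.52), Ppargc1a 2.21-fold lower (1.91 to 2.55, not called with the trend removed) and Elovl3 17.5-fold lower (2.81 to 722). Dio2, Ppargc1a and Slc2a4 are muscle genes too, and the muscle markers summed to 346 CPM in PKO-NF1 and 63397 CPM in NF1.

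**Figure D3:**
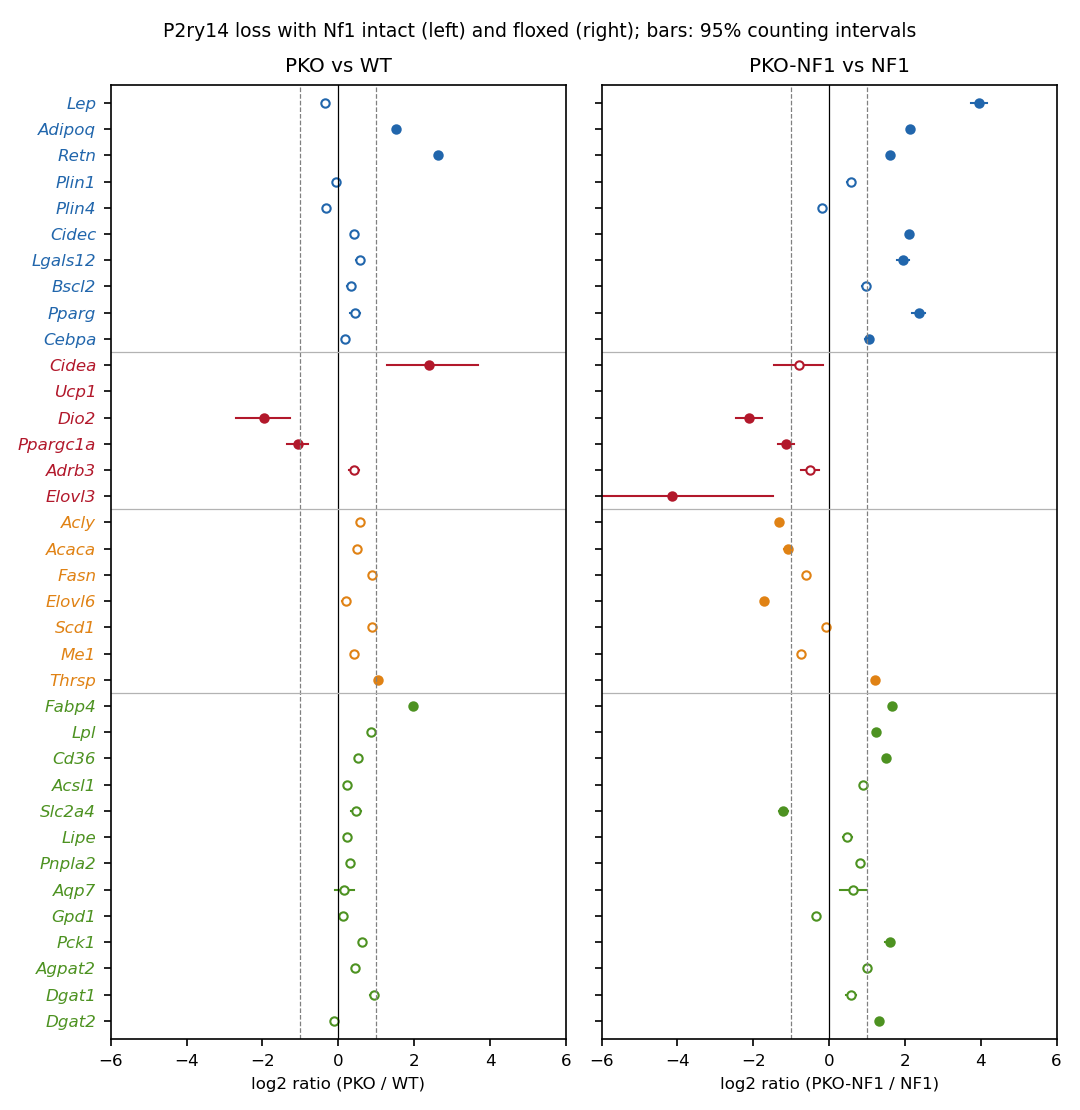
Log2 ratios of the adipocyte genes in PKO over WT (left) and PKO-NF1 over NF1 (right), with bars for 95% counting intervals (cut at the axis for Elovl3), filled symbols for called genes and dashed lines at 2-fold. White-type genes have a median of 0.37 on the left (-0.09 scaled by total counts alone) and 1.78 on the right, and Dio2 lies below the lower 2-fold line in both panels.

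The pairs that differ in P2ry14 share no library either. Adipoq, Retn, Fabp4 and Thrsp were called higher in both, 11.4% of members against 2.97% of all genes, and Dio2 and Ppargc1a lower in both, 5.71% of members against 2.85%. Once the trend was removed, Fabp4 was the only member still higher in both and Dio2 the only one lower in both, and Cidea was higher in PKO than in WT and lower in PKO-NF1 than in NF1. On principal transcripts 0 members were higher in both and Dio2 alone was lower in both. Of 17 muscle markers 13 were lower in PKO than in WT and 17 in PKO-NF1 than in NF1, with 0 higher in either. Of all genes 5.23% and 13.8% were lower. The part of muscle RNA in Dio2 and Ppargc1a was not tested. In the additive model, edgeR's quasi-likelihood test called 0 of 34 members at the P2ry14 term after Benjamini-Hochberg adjustment, and 0.0496% of all genes. At an unadjusted p under 0.05, the edgeR test gave 10 members, 8 higher and 2 lower, beside 25.2% of all genes. The smallest edgeR adjusted p among members was 0.142, for Dio2 (fitted log2 change -2.04), Ppargc1a (-1.11) and Retn (2.12). The DESeq2 Wald test called 5 members at this term, Retn, Fabp4, Adipoq, Dio2 and Thrsp, beside 5.13% of all genes.

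**Figure D4:**
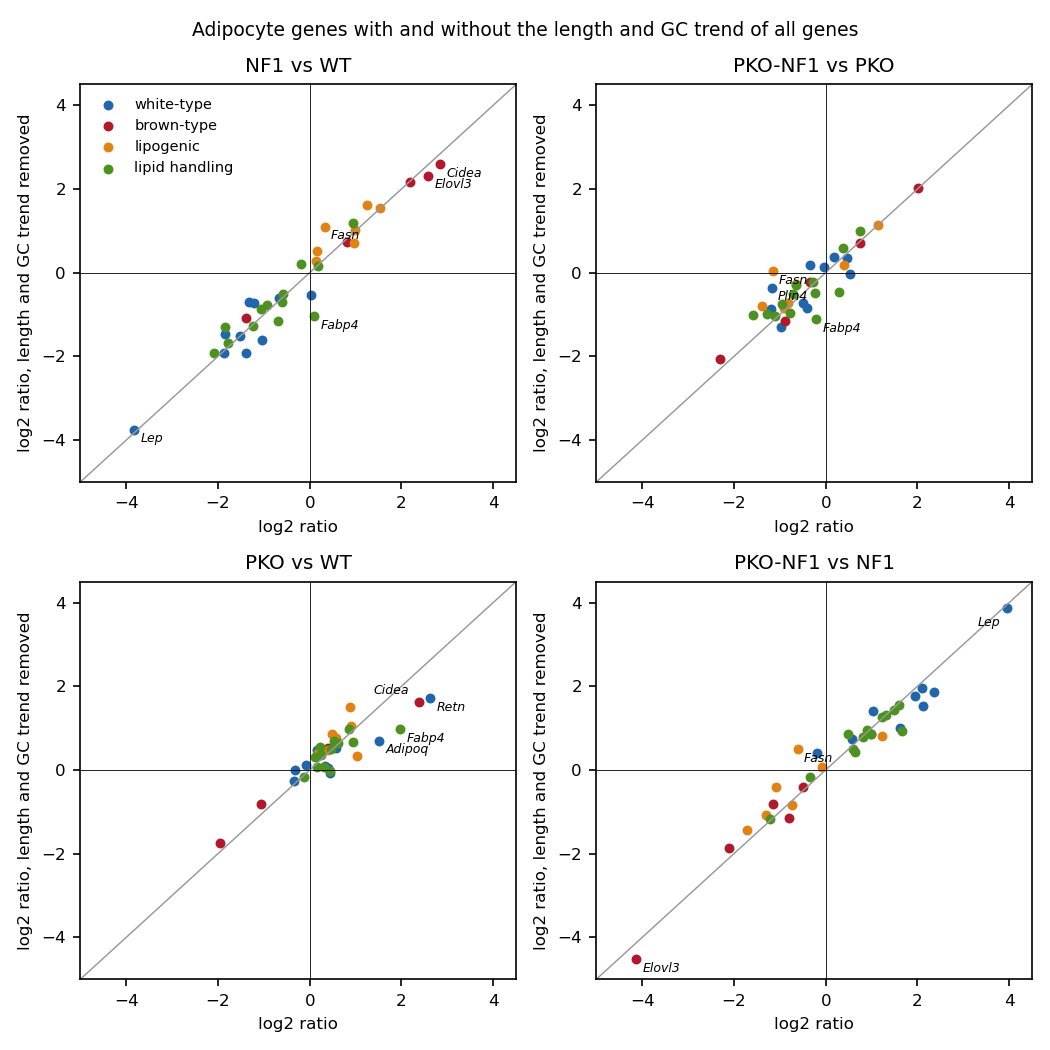
Log2 ratio of each adipocyte gene as measured (horizontal axis) against the log2 ratio with the length and GC trend of all genes removed on principal transcripts (vertical axis), in the 4 comparisons, coloured by class. Points off the diagonal moved: Fasn is at -1.16 measured and 0.04 with the trend removed in PKO-NF1 over PKO, and Fabp4 at 1.97 and 0.97 in PKO over WT, while Lep lies near the line in NF1 over WT.

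Of 48 further adipocyte genes listed by function, 46 reached 1 CPM. In NF1 against WT 4 were higher and 12 lower (median log2 ratio -0.31), where 10.4% and 6.31% of all genes were. In PKO-NF1 against PKO 0 were higher and 8 lower (-0.43), where 5.21% and 9.73% of all genes were, but with the length and GC trend removed 1 was higher and 1 lower. In PKO against WT 12 were higher and 1 lower (0.15), where 10.0% and 5.23% of all genes were, and 6 higher and 3 lower with the trend removed. In PKO-NF1 against NF1 14 were higher and 6 lower (0.44), where 7.9% and 13.8% of all genes were. Cfd, or adipsin, a complement protease of fat cells, had the highest mean CPM of these. It was at 5638 CPM in PKO-NF1, 1404 in NF1, 8465 in PKO and 3122 in WT. In NF1 alone Car3, at 1910 CPM, lay above it. Cfd kept closer to Adipoq than Lep did, with 475 counts for each 100 of Adipoq in PKO-NF1, 519 in NF1, 539 in PKO and 567 in WT.

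Among those lower in NF1 than in WT, Nnat, neuronatin, was 52.2-fold lower (41.4 to 66.8), Tusc5, which helps traffic the adipocyte glucose transporter, 4.4-fold, and Slc7a10, an amino acid transporter of white adipocytes, 4.2-fold. In PKO-NF1 against PKO, Slc7a10 was 2.14-fold lower (1.91 to 2.4) and Srebf1, a transcription factor of lipogenic genes, 2.41-fold (2.27 to 2.56), but neither was called with the trend removed (log2 ratios -0.84 and -0.58). Adig, adipogenin, was 6.41-fold higher in PKO than in WT (5.99 to 6.87). Its log2 ratio was 2.68 as measured and 1.62, still called, with the trend removed. The 4 genes higher in NF1 than in WT were Fitm1, Cox7a1, Cox8b and Adipor1. Muscle expresses these genes too, and the part of muscle RNA in them was not tested. Cox8b and Cox7a1, mitochondrial subunits of brown fat as well as muscle, were also 5.36-fold (4.5 to 6.42) and 4.41-fold (3.58 to 5.47) higher in PKO than in WT. With the trend removed their log2 ratios were 1.32 in place of 2.42 and 1.05 in place of 2.14, both still called. Muscle markers summed to 154 CPM in PKO and 1083 CPM in WT. Which cells these 2 genes came from was not tested.

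Markers of other cell types differed between libraries too, and their part in the adipocyte values was not tested. The 12 endothelial genes, of cells that also use Fabp4, Cd36 and Lpl, summed to 568 CPM in PKO-NF1, 332 in NF1, 933 in PKO and 788 in WT. Of these, 7 were lower in NF1 than in WT and 5 lower in PKO-NF1 than in PKO, with 0 higher in either, where 6.31% and 9.73% of all genes were lower. Once the trend was removed, 6 and 1 were lower. Pecam1 and Egfl7 led this list, and Egfl7 overlaps Agpat2 on the opposite strand, so that counts of both are uncertain. The 10 macrophage genes, led by Lyz2 and C1qa, summed to 3499 CPM in PKO-NF1, 1809 in NF1, 2361 in PKO and 1526 in WT. The 12 fibroblast and progenitor genes, led by Dcn and Lum, summed to 11130.4 CPM in PKO-NF1, 6533 in NF1, 7501 in PKO and 5389 in WT. No marker on these lists was at 0 in any library.

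**Figure D5:**
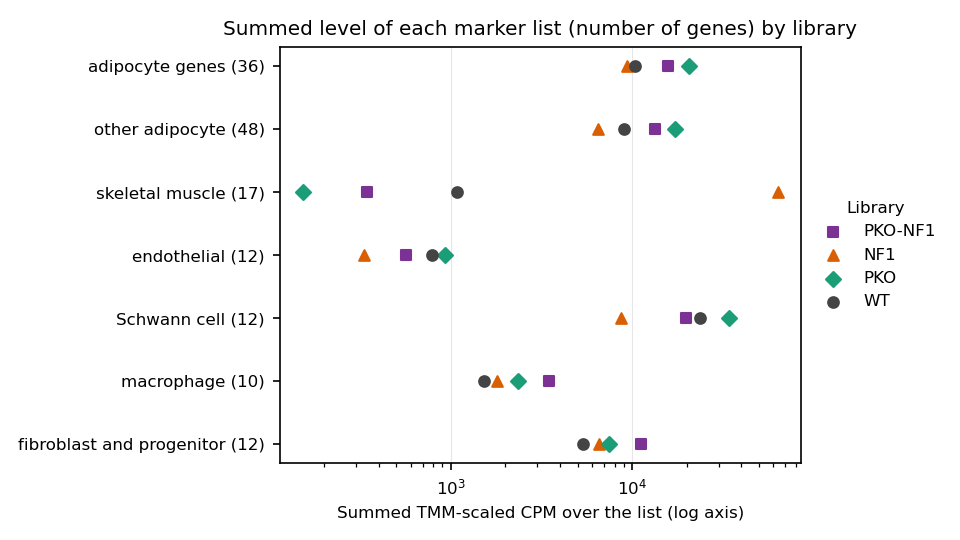
Summed TMM-scaled CPM (log axis) of the 36 adipocyte genes and of 6 other lists, with 1 symbol for each of the PKO-NF1, NF1, PKO and WT libraries. The adipocyte genes sum to 15683 CPM in PKO-NF1, 9382 in NF1, 20523 in PKO and 10333 in WT, and muscle genes stand at 63397 CPM in NF1 and between 154 and 1083 CPM elsewhere.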

How the data were processed

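RNA sequencing of 4 sciatic nerve libraries was read from the table of raw counts per gene symbol that the authors deposited. FastQC 0.11.7, HISAT2 2.0.5, featureCounts 1.5.2 and build mm10 are listed, per the submitters' processing notes. The annotation, the strandedness and the treatment of multiply matching reads are not known here. Exons of 12 members overlap another annotated gene, which makes their counts uncertain. TMM factors from edgeR 4.0.16 (0.922 for PKO-NF1, 1.034 for NF1, 0.873 for PKO, 1.201 for WT) gave CPM, and genes at 1 CPM in at least 1 library were kept. Ratios carry exact conditional (Clopper-Pearson) 95% intervals. These and the limit of 3 counts, used in place of a count of 0, cover counting error only, because reads were not tagged by molecule. The additive model used edgeR, or DESeq2 1.42.0, on genes at 1 CPM in at least 2 libraries. Lengths, GC content and gene positions came from GENCODE M21 (GRCm38), matched for 98.5% of symbols, and the trend was fitted on the longest transcript unless the principal one is named. The calculations were tested on simulated data. Members, classes and lists were chosen with earlier results of these data known. All members could be named, with up to 4 other adipocyte genes per direction by interval bound, the 4 most abundant, and the 2 most abundant markers of each other list, of which 1 is not reported here.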

Additional observations from a re-analysis of the deposited data

Results flagged for a closer look

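The lipogenic median log2 ratio was 0.97 in NF1 against WT and -0.83 in PKO-NF1 against PKO. With the length and GC trend removed these were 1.01 and -0.29. It was -0.74 in PKO-NF1 against NF1 and 0.58 in PKO against WT, or -0.42 and 0.77 with the trend removed. The brown-type median was 2.18 in NF1 against WT and -0.34 in PKO-NF1 against PKO, but 1.5 and 0.2 without Elovl3 and 0.81 and 0.74 at 5 CPM or more, so that its opposite signs rest on genes with few counts. Each stands out because the same genotype contrast had opposite signs in the 2 backgrounds at the 1 CPM filter. With 1 library per genotype the difference was not tested, and all 3 involve the NF1 library.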

How the results depend on the processing

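Of 274 recomputed counts and medians, 231 kept their direction and stayed within 1.5-fold of their size. Some of these could not move, so the number overstates stability. Scaling cancels in the differences between class medians, and leaving out Elovl3 cannot change a count in which it was not called. No paired analysis was possible because each genotype has 1 library, and for the same reason no library could be left out. Scaling by total counts alone moved the PKO against WT white-type median to -0.09 and the lipogenic median to 0.12, and turned the lipid handling median to -0.02. The median of all genes was then -0.22 in NF1 against WT, -0.54 in PKO against WT and -0.18 in PKO-NF1 against NF1. The share of called genes that were higher was then 41.2% in place of 62.3% in NF1 against WT, 21.6% in place of 65.7% in PKO against WT and 22.5% in place of 36.4% in PKO-NF1 against NF1. A 5 CPM filter left 3 members higher in NF1 against WT. Brown-type medians were then 0.81 in NF1 against WT, 0.74 in PKO-NF1 against PKO and -1.07 in PKO against WT, and the brown-type minus white-type differences 2.16, 1.12 and -1.45. With no filter the brown-type median in PKO against WT was 0.35, and that difference was -0.24 in PKO-NF1 against PKO and -0.03 in PKO against WT. Without Elovl3, also chosen after seeing the data, the brown-type median was 1.5 in NF1 against WT and 0.2 in PKO-NF1 against PKO. Without members that mark other cell types, the lipogenic class is Thrsp alone, at 1.14 in PKO-NF1 against PKO and 1.22 in PKO-NF1 against NF1, and the brown-type median in PKO against WT was 1.4. With the length and GC trend removed 8 members were higher in NF1 against WT, 4 lower in PKO-NF1 against PKO and 1 lower in PKO against WT, the brown-type minus white-type difference in PKO-NF1 against PKO was -0.05 and the lipogenic minus white-type one in PKO-NF1 against NF1 -1.84. With principal transcripts in its place, an alternative chosen after seeing the data, these were 8, 5, 1, -0.04 and -1.87. The lipogenic minus white-type difference in PKO against WT was then 0.67, and the Fasn log2 ratio in PKO-NF1 against PKO turned to 0.02 with the longest and 0.04 with the principal transcript. At 1.5-fold 9 members were higher in NF1 against WT, 4 higher and 16 lower in PKO-NF1 against PKO, and 10 higher in PKO against WT. At 3-fold 3 were higher and 6 lower in NF1 against WT, 1 higher and 1 lower in PKO-NF1 against PKO, 3 higher and 1 lower in PKO against WT, and 8 higher and 3 lower in PKO-NF1 against NF1. The DESeq2 Wald test called 7 members at the Nf1 term and 5 at the P2ry14 term, where edgeR called 0. Low counts limit Cidea, Dio2 and Elovl3 most, and Ucp1 altogether.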
